A study of Homo sapiens with 8 samples.

Results

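Heat shock genes were followed in LX-2, an immortalised human hepatic stellate cell (HSC) line of myofibroblast (MF) phenotype, after the enzyme that attaches O-GlcNAc to intracellular proteins, O-GlcNAc transferase (OGT), had been inhibited. The 10 genes were given by name, with earlier results of these data known, and no threshold on measured values chose them. They were HSF1, which encodes the master transcription factor of the heat shock response, and 9 genes of the cytosolic chaperone machinery, namely HSPA1A, HSPA1B, HSPA8, HSP90AA1, HSP90AB1, HSPB1, DNAJB1, HSPH1 and BAG3. All 10 were among the 16796 genes of the deposited count tables, and all 10 passed the filter on low counts. Cells of both groups grew in medium with 5% serum and were collected after 24 h with vehicle (control) or with 50 µM OSMI-1, a small-molecule inhibitor of OGT (OGTi). Polyadenylated RNA was sequenced in 4 libraries per group, which the labels describe as biological replicates. All libraries came from 1 cell line, and the study paired the control and the OGTi library of the same replicate number.

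In unstressed cells HSF1 is held inactive in complexes with chaperones. Misfolded proteins draw these chaperones away, after which HSF1 forms trimers and binds heat shock elements in the promoters of chaperone genes. These elements are inverted repeats of the letters GAA and TTC. HSP70 proteins bind exposed hydrophobic stretches of client proteins with the help of J-domain partners and nucleotide exchange factors, HSP90 proteins take over part of those clients, and small heat shock proteins hold unfolded proteins soluble. HSF1 activity is set mainly on the protein, so its mRNA level is no measure of it.

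The libraries held 24166756 to 28201215 counts, with at least 10 counts for 12834 to 13190 genes, and each of the 10 genes had at least 2614 normalized counts in every library, where a normalized count is a count divided by the DESeq2 size factor of its library. OGT itself, the gene of the inhibited enzyme, fell by 0.45 ± 0.09 on the log2 scale (SE, DESeq2 q = 1.48e-06), from 5351 to 5977 normalized counts in control libraries to 3534 to 4695 in OGTi libraries. OSMI-1 acts on the enzyme, so this is no check of inhibition. Of 10 stellate or MF markers, 9 reached a mean of 100 counts, while DES stayed at or under 0.151 CPM (counts per 1000000 counts of the library). The summed stellate or MF list was lower under OGTi, at 6507 to 7846 CPM against 8166 to 9525 CPM in control libraries. COL1A1, COL1A2, COL3A1, ACTA2, PDGFRB and TAGLN lay below every control library. TIMP1 went the other way, at 553 to 997 CPM under OGTi against 412 to 516 CPM in control libraries. VIM, LOX and DES overlapped between the groups. The marker lists of other liver cell types were near 0 but for SOX9, a transcription factor, and CD68, a lysosomal glycoprotein. The summed leukocyte list moved from 93.5 to 148 CPM in control to 219 to 372 CPM in OGTi libraries through CD68, and the common leukocyte antigen PTPRC stayed at or under 0.414 CPM in every library. In bulk RNA fewer cells of a type and less RNA per cell cannot be told apart, and the part of these marker shifts in the results was not tested.

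Promoter sequences were compared first, since the members are known for a shared element. The search used the 250 bases before the start of each gene's canonical transcript in GENCODE release 44, read from hg38 in the direction of the gene. A match was GAANNTTCNNGAA or TTCNNGAANNTTC, which are 3 inverted units in either phase and cover both strands, with N for any letter. Overlapping matches were joined into a run. Without any differing letter, 3 of 9 member windows held a match (HSPA8, HSP90AA1 and HSPH1), against 0.325% of 20006 protein-coding genes. With at most 1 of the 9 fixed letters different, 7 of 9 windows did, all but those of HSP90AB1 and BAG3, against 3.97% of all. The window of HSF1 was not searched. The placement of the windows and the allowance of 1 letter were chosen after a first search had been seen. Elements outside the 250 bases were not searched for. The whole windows of HSPA1A and HSP90AA1, the inducible HSP70 and HSP90 genes, are shown. Those of HSPB1, whose run lies farther from the start than theirs, and of BAG3, with no match, follow. All windows shown hold no annotated exon, and capitals mark the runs.
HSPA1A: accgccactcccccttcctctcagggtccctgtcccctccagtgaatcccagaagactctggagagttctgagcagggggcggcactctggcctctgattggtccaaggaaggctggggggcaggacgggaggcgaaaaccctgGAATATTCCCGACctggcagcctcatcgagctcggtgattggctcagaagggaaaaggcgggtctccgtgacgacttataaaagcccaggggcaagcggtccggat
HSP90AA1: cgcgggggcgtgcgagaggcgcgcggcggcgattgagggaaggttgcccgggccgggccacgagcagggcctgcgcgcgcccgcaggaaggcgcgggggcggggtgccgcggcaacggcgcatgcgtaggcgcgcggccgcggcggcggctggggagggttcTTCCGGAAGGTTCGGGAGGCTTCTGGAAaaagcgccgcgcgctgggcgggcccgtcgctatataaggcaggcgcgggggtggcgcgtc
HSPB1: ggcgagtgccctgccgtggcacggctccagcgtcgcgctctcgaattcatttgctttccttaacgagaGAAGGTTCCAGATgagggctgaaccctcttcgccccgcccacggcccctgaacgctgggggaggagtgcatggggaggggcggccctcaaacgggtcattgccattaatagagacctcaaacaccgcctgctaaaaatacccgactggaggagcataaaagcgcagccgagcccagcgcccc
BAG3: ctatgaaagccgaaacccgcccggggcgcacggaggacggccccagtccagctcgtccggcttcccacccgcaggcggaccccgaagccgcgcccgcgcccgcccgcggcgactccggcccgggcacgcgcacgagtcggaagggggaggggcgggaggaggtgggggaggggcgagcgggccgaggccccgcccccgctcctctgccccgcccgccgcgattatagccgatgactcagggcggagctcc
These windows lie at chr6:31815293-31815542 on the plus strand (HSPA1A), chr14:102087045-102087294 on the minus strand (HSP90AA1), chr7:76302423-76302672 on the plus strand (HSPB1) and chr10:119651130-119651379 on the plus strand (BAG3). In HSP90AA1 a run of 28 bases, which holds 4 overlapping matches, ended 61 bases before the start.

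The runs of the other matching genes are shown alone, because the windows of HSPA8, HSPH1 and DNAJB1 overlap exons of other annotated transcripts, and that of HSPA1B holds the same 13 letters as its neighbour. HSPH1 also had 4 overlapping matches, in 2 runs of 18 bases.
HSPA1B, chr6:31827633-31827645, plus strand: GAATATTCCCGAC
HSPA8, chr11:123062354-123062366, minus strand: GAAAGTTCCAGAA
HSPA8, chr11:123062179-123062191, minus strand: TTCTGGAAGGTTC
DNAJB1, chr19:14518462-14518474, minus strand: GAAGGTTCTGGAG
DNAJB1, chr19:14518437-14518449, minus strand: CTCTGGAAGCTTC
HSPH1, chr13:31162026-31162043, minus strand: TTCCAGAAGGCTCGAGAA
HSPH1, chr13:31161951-31161968, minus strand: GCAGATTCTGGAAAGTTC
In HSPA1A, HSPA1B, HSPA8, DNAJB1 and HSPH1 a run ended 40 to 94 bases before the start, and in HSPB1 the run ended 170 bases before it. The farther runs of HSPA8 and HSPH1 ended 218 and 122 bases before the start. A match is a description of letters and not evidence of binding. Outside the members, 429 tested genes had a match with at most 1 letter different, and 23.1% of them were called higher and 21.9% lower in OGTi, with a median log2 fold change of 0.02. The shares of all tested genes were 22.7% and 24.0%.

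In OGTi libraries 8 of the 10 genes were called higher, HSF1 was called lower and HSPA8 was not called. A call is a DESeq2 q (Benjamini-Hochberg adjusted p) of 0.05 or lower. The groups differ by the compound, and whether loss of OGT activity or another effect of OSMI-1 underlies a change was not tested. The treatment changed a large part of the transcriptome, and the count has to be read against that. Of 14028 genes tested, 46.6% were called, 22.7% higher and 24.0% lower. The groups did not overlap, with every OGTi library above every control library, for 6 of the 10 genes, against 18.8% of 14895 fitted genes. With every OGTi library below, it was 1 gene, HSF1, against 19.2%, and separation in either direction was seen for 38.0% of all. The median log2 fold change of the 10 genes was 0.43, and that of all tested genes was 0.00. A log2 fold change of 1 or more with a q of 0.05 or lower was reached by HSPA1A and HSPA1B, and by 4.08% of all tested genes.

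**Figure D1:**
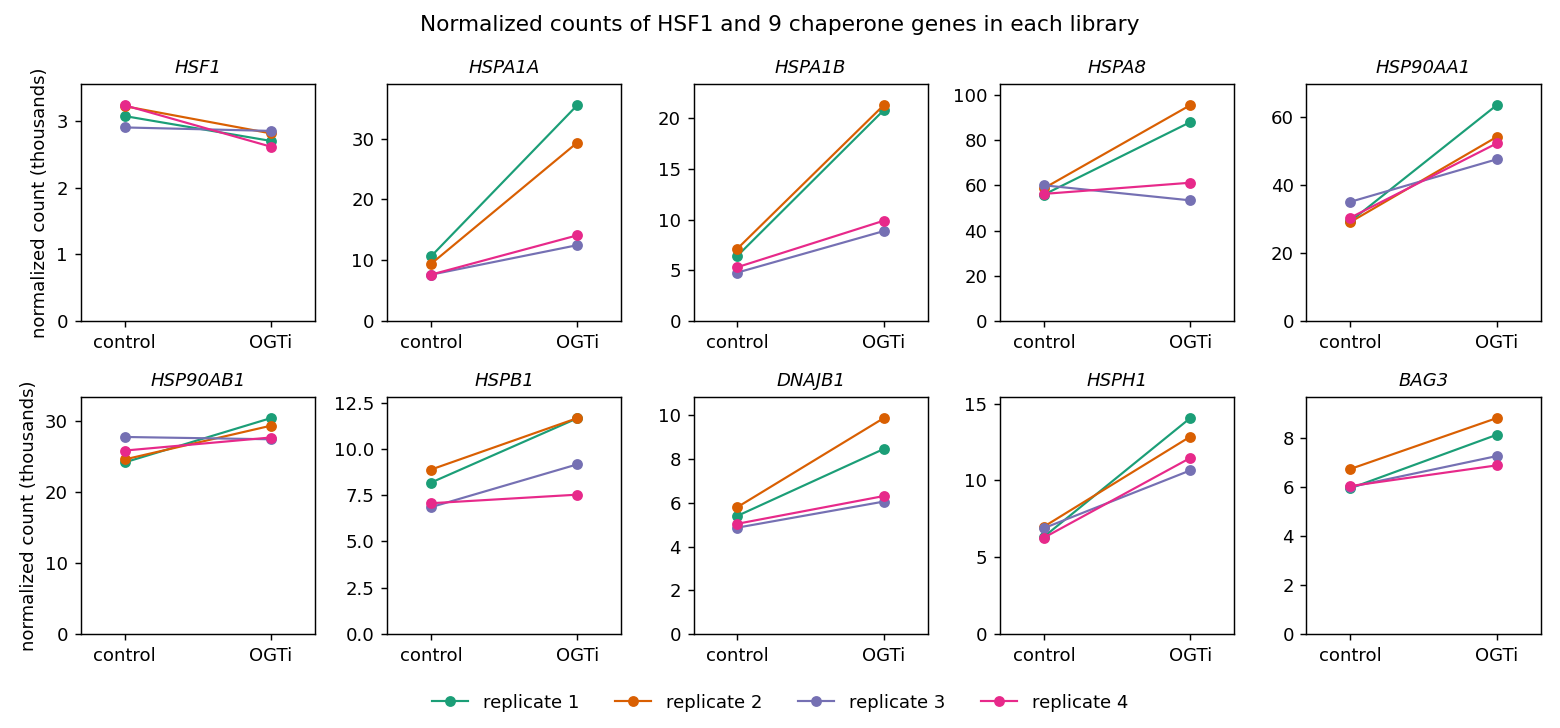
Normalized counts (axis in units of 1000) of each gene in the 8 libraries, with a line for each pair of the same replicate number and each vertical axis starting at 0. HSPA1A and HSPA1B rise most in replicates 1 and 2, HSF1 declines slightly in all 4 pairs, and HSPA8 crosses between pairs.

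HSF1, on chromosome 8 with 13 exons in its canonical transcript, declined by a small amount. Its normalized counts were 3073, 3221, 2902 and 3235 in control replicates 1 to 4 and 2700, 2813, 2850 and 2614 in the OGTi replicates. All OGTi libraries lay below all control libraries, by a narrow margin in replicate 3. The log2 fold change was -0.18 ± 0.08 (SE, n = 4 per group, DESeq2 q = 0.0448). This call was lost with total-count size factors (log2 fold change -0.09, DESeq2 q = 0.371), in edgeR with no replicate block (q = 0.0599) and without pair 1, 2 or 4 (DESeq2 q = 0.107, 0.176 and 0.282).

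HSPA1A and HSPA1B encode the inducible HSP70, the classical product of heat shock, and they rose most among the members. They are neighbouring genes with 1 exon each, at chr6:31815543-31817946 and chr6:31827738-31830254 on the plus strand. HSPA1A counted 10632, 9397, 7627 and 7635 in control replicates 1 to 4 and 35501, 29348, 12484 and 14100 in OGTi replicates 1 to 4. HSPA1B counted 6441, 7151, 4789 and 5321 in controls and 20809, 21302, 8880 and 9903 under OGTi. Neither gene overlapped between the groups, and in both the OGTi libraries fell into a high pair, replicates 1 and 2, and a lower pair, replicates 3 and 4. The log2 fold change was 1.24 ± 0.26 for HSPA1A (SE, DESeq2 q = 6.78e-06) and 1.26 ± 0.21 for HSPA1B (DESeq2 q = 2.17e-08). Within pairs 1 to 4, HSPA1A was 3.34-, 3.12-, 1.64- and 1.85-fold higher.

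The values of these neighbours cannot be taken as separate measurements. Their coding sequences of 1923 bases differ at 4 bases, are 99.8% identical, and share an unbroken identical stretch of 1709 bases. In all 8 libraries both had a fractional expected count, and in all 8 the sum was whole within 0.005 counts. RSEM divides a read that aligns to several genes between them. The other 8 members had whole counts in every library. HSPA1A took 56.8% to 63.0% of the sum. Summed into 1 gene, the normalized counts were 17073, 16548, 12415 and 12956 in control and 56312, 50651, 21363 and 24003 in OGTi libraries, and the log2 fold change was 1.25 ± 0.24 (SE, DESeq2 q = 9.58e-07). The summed gene was 2.38-fold higher, with a 95% interval of 1.72 to 3.29. The tallies of members given here count the neighbours as 2 genes. With them summed, 8 members were called in either direction, against 9 with them apart.

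HSPA8, at chr11:123057489-123063230 on the minus strand, encodes HSC70, the constitutive HSP70 that does most folding work in unstressed cells. It was the most abundant member per transcript length. Its normalized counts were 55851, 58674, 59987 and 56190 in control and 87878, 95371, 53343 and 61120 in OGTi replicates 1 to 4. The controls lay close together, whereas OGTi replicates 1 and 2 were far above them, replicate 4 barely above and replicate 3 below all controls. The log2 fold change was 0.33 ± 0.24 (SE, DESeq2 q = 0.279), a fold of 1.25 with a 95% interval of 0.901 to 1.75, so that neither no change nor a sizeable rise lay outside it. The gene was called higher in DESeq2 with no replicate block (q = 0.0354) and in edgeR with the block (q = 0.0175), with log2 fold changes of 0.37 and 0.33.

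HSP90AA1 and HSP90AB1 encode the inducible and the constitutive cytosolic HSP90, at chr14:102080742-102139699 on the minus strand and chr6:44246166-44253888 on the plus strand. HSP90AA1 counted 29375, 29157, 35114 and 30448 in control and 63564, 54211, 47626 and 52314 in OGTi libraries. There was no overlap, and the lowest OGTi library was replicate 3, whose control was the highest. The log2 fold change was 0.81 ± 0.17 (SE, DESeq2 q = 5.53e-06), a fold of 1.75 with a 95% interval of 1.40 to 2.19. HSP90AB1 counted 24130, 24548, 27714 and 25798 in control and 30364, 29296, 27388 and 27639 under OGTi. Here the groups overlapped, and the gene was higher in 3 of 4 pairs. Its log2 fold change was 0.17 ± 0.07 (SE, DESeq2 q = 0.0468). That call was lost in DESeq2 with no replicate block (q = 0.0503), in edgeR with and without the block (q = 0.0721 and 0.0947), and without pair 1, 2 or 4 (DESeq2 q = 0.226, 0.245 and 0.0964). The study used HSP90 as a loading control on some immunoblots of OGTi-treated cells, and GAPDH or LMNA on others. Protein was not measured in the data analysed here, so these RNA values give no HSP90 protein level.

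HSPH1, at chr13:31134973-31162388 on the minus strand, encodes HSP110, a relative of HSP70 that exchanges its nucleotide and helps to dissolve aggregates. It counted 6327, 6985, 6887 and 6266 in control and 14048, 12841, 10643 and 11452 in OGTi libraries. All 4 OGTi libraries were well above every control. The log2 fold change was 0.88 ± 0.08 (SE, DESeq2 q = 8.05e-25), the smallest q of the 10 genes, a fold of 1.84 with a 95% interval of 1.65 to 2.06.

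DNAJB1 encodes HSP40, the J-domain protein that delivers clients to HSP70 and starts its ATP cycle, at chr19:14514769-14560391 on the minus strand. The counts were 5402, 5803, 4863 and 5040 in control and 8458, 9870, 6054 and 6307 in OGTi libraries. The groups were separate, but OGTi replicates 3 and 4 came near the highest control. DNAJB1 rose by 0.51 ± 0.09 on the log2 scale (SE, DESeq2 q = 2.31e-08).

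BAG3, at chr10:119651380-119677819 on the plus strand, encodes a co-chaperone that releases clients from HSP70 and steers them to selective autophagy. The counts were 5960, 6750, 6011 and 6052 in control and 8147, 8830, 7277 and 6897 in OGTi libraries. No library overlapped, although control replicate 2 stood above the other controls and close to OGTi replicate 4. BAG3 rose by 0.33 ± 0.07 on the log2 scale (SE, DESeq2 q = 2.23e-05).

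HSPB1, at chr7:76302673-76304295 on the plus strand, encodes HSP27, a small heat shock protein that holds unfolded clients and stabilises actin. It counted 8177, 8881, 6850 and 7063 in control and 11652, 11661, 9163 and 7526 in OGTi libraries. OGTi replicate 4 lay below control replicates 1 and 2, so the groups overlapped, yet the gene was higher in all 4 pairs. The log2 fold change was 0.35 ± 0.08 (SE, DESeq2 q = 3.15e-05). HSPB1 and 6 other members were higher in all 4 pairs, against 27.8% of fitted genes.

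**Figure D2:**
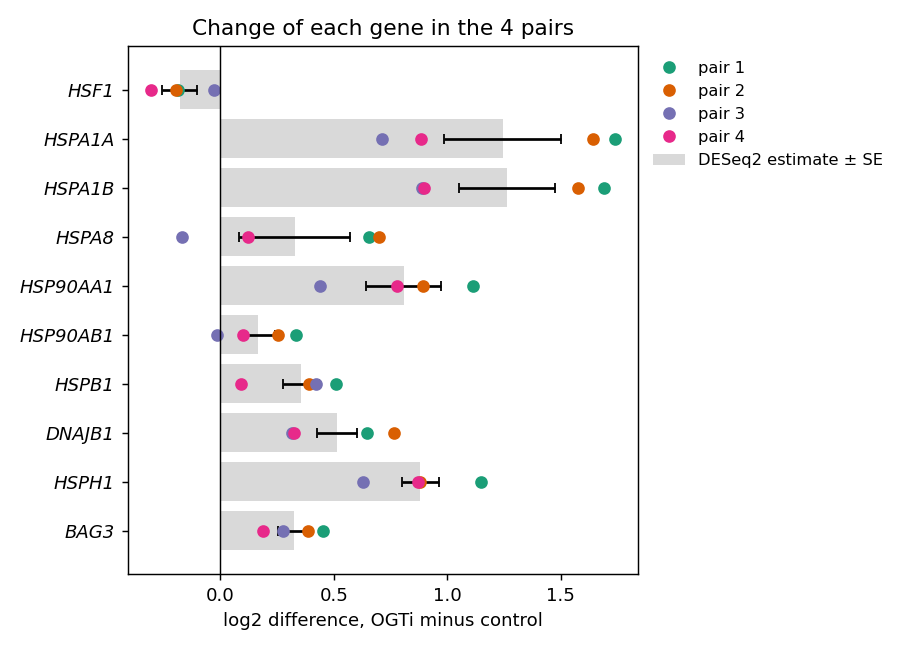
Log2 difference between the OGTi and the control library of each pair (points, 1 per replicate number) with the DESeq2 log2 fold change (bar) and its standard error (whisker). Pairs 1 and 2 lie to the right of pairs 3 and 4 in 8 of the 9 chaperone genes, all but HSPB1, and pair 3 of HSPA8 and HSP90AB1 lies left of 0.

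The replicates did not respond to the same degree. In all 9 chaperone genes OGTi replicates 1 and 2 were both above OGTi replicates 3 and 4, an order that 22.9% of all fitted genes showed. In the controls 4 of the 9 genes had that order, against 22.7% of all. The median log2 difference over the 9 genes was 0.65 in pair 1, 0.77 in pair 2, 0.42 in pair 3 and 0.32 in pair 4, and over all fitted genes it was 0.00 in each pair. These 10 genes took 0.556% to 0.606% of all counts in control libraries, and 1.12%, 1.07%, 0.725% and 0.797% in OGTi replicates 1 to 4. The labels name no batch that sets replicates 1 and 2 apart from 3 and 4, and what differs between them was not tested. The values of pairs 3 and 4 also rest on the replicate numbers, since across genes control replicate 3 correlated better with OGTi replicate 4 (0.343), and control replicate 4 better with OGTi replicate 3 (0.255), than control replicate 3 did with OGTi replicate 3 (0.165).

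This spread between pairs was large for these genes. For 4 of the 10 genes (HSPA1A, HSPA1B, HSPA8 and HSP90AA1), DESeq2 kept a dispersion above the range allowed by its prior, at 12.9, 8.54, 12.2 and 5.55 times the fitted trend. The same was true of 0.919% of the 10994 genes whose mean reached 100 normalized counts. HSPA1A and HSPA1B share reads, so the 4 genes are not 4 separate cases. The OGTi libraries of HSPA1A spanned a 2.84-fold range and the controls a 1.39-fold range. For HSPA8 the ranges were 1.79-fold and 1.07-fold.

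Levels were compared between genes per kilobase of the longest annotated transcript and per 1000000 counts. In control libraries the order was HSPA8 at 925 ± 32, HSP90AB1 at 353 ± 14, HSP90AA1 at 327 ± 23, HSPB1 at 197 ± 29, HSPA1A at 136 ± 26, BAG3 at 89.5 ± 6.8, HSPA1B at 87.4 ± 17.9, HSPH1 at 46.7 ± 2.9, DNAJB1 at 45.8 ± 4.7 and HSF1 at 33.3 ± 2.1 (SD, n = 4). The neighbours HSP90AB1 and HSP90AA1, BAG3 and HSPA1B, and HSPH1 and DNAJB1 overlapped between libraries, and the other neighbours did not. HSPA1A and HSPA1B share reads, so their own places in the order are uncertain. Summed, they stood at 224 ± 42 in control libraries, between HSP90AA1 and HSPB1 and overlapping HSPB1, and at 613 ± 289 under OGTi. Under OGTi the level of HSP90AA1 was 611 ± 78 and that of HSP90AB1 422 ± 21, without overlap. HSPA8 reached 1270 ± 344 and HSPA1A 375 ± 186. The order depends on the length used. With the canonical transcript 6 of the 10 genes changed rank, HSPB1 moved up to 370 ± 55, level with HSP90AB1 at 369 ± 14 and overlapping it, and HSPH1 came last, overlapping HSF1.

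**Figure D3:**
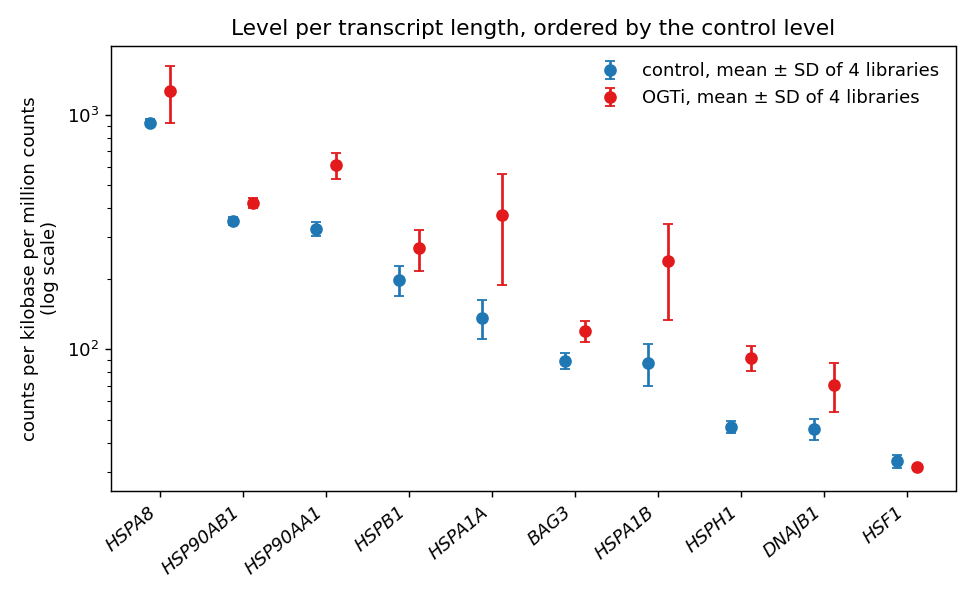
Level of each gene in counts per kilobase of longest transcript per 1000000 counts (log axis), as mean ± SD of 4 control and 4 OGTi libraries, ordered by the control level. HSPA8 is highest at 925 in control libraries and HSF1 lowest at 33.3, and the wide OGTi bars belong to HSPA1A, HSPA1B and HSPA8.

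Inducible genes were set against a relative within each library, a ratio that does not depend on depth. The log2 ratio of HSP90AA1 to HSP90AB1 was 0.28, 0.25, 0.34 and 0.24 in control and 1.07, 0.89, 0.80 and 0.92 in OGTi libraries. It rose from a mean of 0.28 to 0.92, so that the inducible gene went from 1.21 to 1.89 times the constitutive one in counts. The log2 ratio of HSPA1A plus HSPA1B to HSPA8 was -1.71, -1.83, -2.27 and -2.12 in control and -0.64, -0.91, -1.32 and -1.35 under OGTi. It rose from -1.98 ± 0.26 to -1.06 ± 0.34 (SD, n = 4), and all 4 OGTi libraries were above every control. HSPH1 over HSPA4, an HSP110 relative that is itself counted below among heat-inducible genes, rose by 0.39 from 1.15 ± 0.15 to 1.54 ± 0.10. DNAJB1 over DNAJA1, another J-domain partner of HSP70, rose by 0.43 from 0.03 ± 0.19 to 0.46 ± 0.22.

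BAG3 over BAG1, a related nucleotide exchange factor of HSP70, moved the other way, from 3.32 ± 0.03 to 3.06 ± 0.13. BAG1 itself rose by 0.60 ± 0.10 on the log2 scale (SE, DESeq2 q = 3.18e-08), from 617 ± 36 to 932 ± 35 normalized counts (SD, n = 4). HSPA4 rose by 0.49 ± 0.08 (SE, DESeq2 q = 5.45e-08), while DNAJA1 was not called (0.09 ± 0.07, DESeq2 q = 0.366). Each of the 5 ratios separated the groups without overlap and gave a two-sided exact permutation p of 0.0286, which is the smallest that 4 against 4 libraries allow, and an adjusted p of 0.0286 over the 5. On the 4 paired differences an exact sign-flip test cannot go below 0.125, the value each ratio gave.

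**Figure D4:**
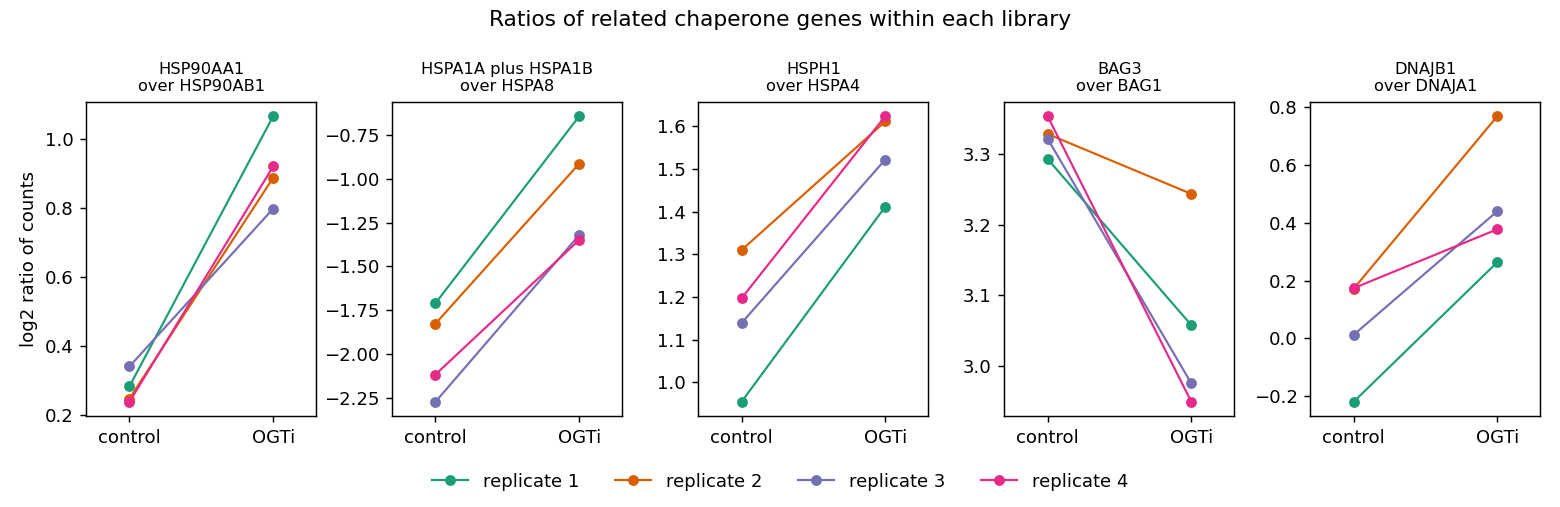
Log2 ratio of counts of related genes within each library, 1 line for each pair of the same replicate number, with a separate vertical axis per panel. HSP90AA1 over HSP90AB1 rises from a mean of 0.28 to 0.92 and BAG3 over BAG1 declines from 3.32 to 3.06, and both hold in all 4 pairs.

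The rest of the chaperone system was counted in 9 lists of general knowledge with the 10 members left out, which share some genes. These lists were chosen with earlier results of these data known. Of 106 tested genes, each counted once, 37.7% were called higher and 18.9% lower, against 22.7% and 24.0% of all tested genes, with a median log2 fold change of 0.06. Without HSPA6, which passed the filter on low counts only through its OGTi libraries, the shares of 105 genes were 37.1% and 19.0%, and the median was 0.05. Among 8 HSF factors and regulators, 1 was called higher and 3 lower. The deacetylase SIRT1, known to prolong HSF1 binding, rose by 0.27 ± 0.12 (SE, DESeq2 q = 0.0478). SIRT1 was higher in 3 of 4 pairs, and its groups overlapped. HSBP1, which dissociates HSF1 trimers, changed by -0.32 ± 0.08 (SE, DESeq2 q = 8.73e-05) and the histone chaperone DAXX, a known partner of HSF1, by -0.27 ± 0.07 (SE, DESeq2 q = 0.000913). The third that fell was HSBP1L1, at low counts, which is named here after its values were seen. HSF2 and HSF4 were not called.

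Among 7 HSP70 and HSP110 relatives 3 were called higher and 0 lower, with 4 not called, and without HSPA6, described next, it was 2 of 6 (33.3%), against 22.7% of all tested genes. HSPA4L, an HSP110 relative, rose by 0.93 ± 0.13 on the log2 scale (SE, DESeq2 q = 2.83e-11). HSPA6 is a strictly inducible HSP70 gene, and it is singled out here after its values were seen, since its counts are low. The raw counts were 3, 2, 1 and 3 in control replicates 1 to 4 and 314, 105, 82 and 65 in OGTi replicates 1 to 4. Every OGTi library was far above the controls, and replicate 1 was highest, as for HSPA1A. In all, 9 control and 566 OGTi counts gave a ratio per depth of 63.5, with an exact 95% interval of 33.2 to 140 that covers counting error only. The gene reached the filter of 10 counts only through its OGTi libraries, so its call is no support for the lists that hold it. Its near-identical relative HSPA7 was not among the genes with deposited counts, so reads of the pair could not be told apart.

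Of 19 cytosolic J-domain genes 4 were called higher (21.1%) and 6 lower (31.6%), shares near the 22.7% and 24.0% of all tested genes. DNAJB2, a J-domain protein with ubiquitin-binding motifs, rose by 0.57 ± 0.08 (SE, DESeq2 q = 1.93e-10) and DNAJC6, the auxilin that uncoats clathrin vesicles, by 0.38 ± 0.09 (SE, DESeq2 q = 5.92e-05). DNAJC17 changed by -1.24 ± 0.19 (SE, DESeq2 q = 2.95e-10). DNAJB4, a close relative of DNAJB1, changed in the opposite direction to it, by -0.70 ± 0.09 (SE, DESeq2 q = 1.14e-13), with 1563 to 1825 normalized counts in control and 983 to 1121 in OGTi libraries.

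HSP70 co-chaperones gave 6 higher (54.5%) and 1 lower (9.09%) of 11, against 22.7% and 24.0% of all tested genes. HSP90 co-chaperones gave 11 higher (57.9%) and 4 lower (21.1%) of 19, the lower share near that of all tested genes. The largest rises were those of BAG1 among the former and of AHSA1, the activator of the HSP90 ATPase, among the latter. AHSA1 rose by 0.74 ± 0.08 (SE, DESeq2 q = 2.22e-20), from 1623 to 1873 up to 2610 to 3268 normalized counts. CDC37L1, a relative of the kinase co-chaperone CDC37, rose by 0.64 ± 0.20 (SE, DESeq2 q = 0.00424). BAG6, a chaperone of membrane protein targeting, changed by -0.49 ± 0.07 (SE, DESeq2 q = 1.91e-12). The immunophilin FKBP5 changed by -0.34 ± 0.07 (SE, DESeq2 q = 1.95e-05).

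Of 3 tested small heat shock protein genes, 1 was called higher (33.3%) and 0 lower, against 22.7% and 24.0% of all tested genes. It was HSPB8, the partner of BAG3 in selective autophagy, at 0.47 ± 0.11 (SE, DESeq2 q = 0.000179). TRiC chaperonin and prefoldin genes, which fold actin and tubulin, gave 1 higher (5.88%) and 4 lower (23.5%) of 17. In this list 12 were not called, and the median log2 fold change was -0.07. Of all tested genes 22.7% were called higher and 24.0% lower, so the lower share of this list was near that of all. PDCL3 and PFDN1 changed by -0.53 ± 0.13 (SE, DESeq2 q = 0.000229) and -0.42 ± 0.07 (SE, DESeq2 q = 5.38e-08), and the gene called higher, named after its values were seen, was CCT6B, at low counts. Mitochondrial chaperones and proteases gave 8 higher (57.1%) and 1 lower (7.14%) of 14, against 22.7% and 24.0% of all tested genes. HSCB, a J-domain protein of iron-sulfur cluster assembly, rose by 0.76 ± 0.21 (SE, DESeq2 q = 0.000968) and the protease HTRA2 by 0.65 ± 0.11 (SE, DESeq2 q = 6.94e-08), while the disaggregase CLPB changed by -0.33 ± 0.09 (SE, DESeq2 q = 0.000846).

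The list of known heat-inducible genes outside the members had 25 tested genes, of which 18 were called higher (72.0%), 2 lower (8.0%) and 5 neither, against 22.7% and 24.0% of all tested genes, with a median log2 fold change of 0.44. Without HSPA6 it was 17 of 24 (70.8%) higher, with a median of 0.43. Many of them stand in the other lists, and of the 9 that did not, 6 were called higher. Like the other lists, this list was chosen with earlier results of these data known, so its share is a description only. SQSTM1, the autophagy receptor p62 and also a target of NRF2, rose by 1.50 ± 0.07 (SE, DESeq2 q = 2.66e-100), from 8368 ± 712 to 23621 ± 841 normalized counts (SD, n = 4). Unlike HSPA1A, it was alike in the 4 OGTi libraries, at 22371, 23908, 24011 and 24193. P4HA1, a subunit of the collagen prolyl hydroxylase, rose from 403 to 475 normalized counts in control to 829 to 931 in OGTi libraries (DESeq2 q = 2.92e-19). SERPINH1, the collagen chaperone HSP47, changed by -0.24 ± 0.09 (SE, DESeq2 q = 0.0181) and was lower in 3 of 4 pairs. The other gene of this list called lower was DNAJB4, given above, at -0.70 ± 0.09 (SE, DESeq2 q = 1.14e-13). DNAJB4 was lower in all 4 pairs.

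**Figure D5:**
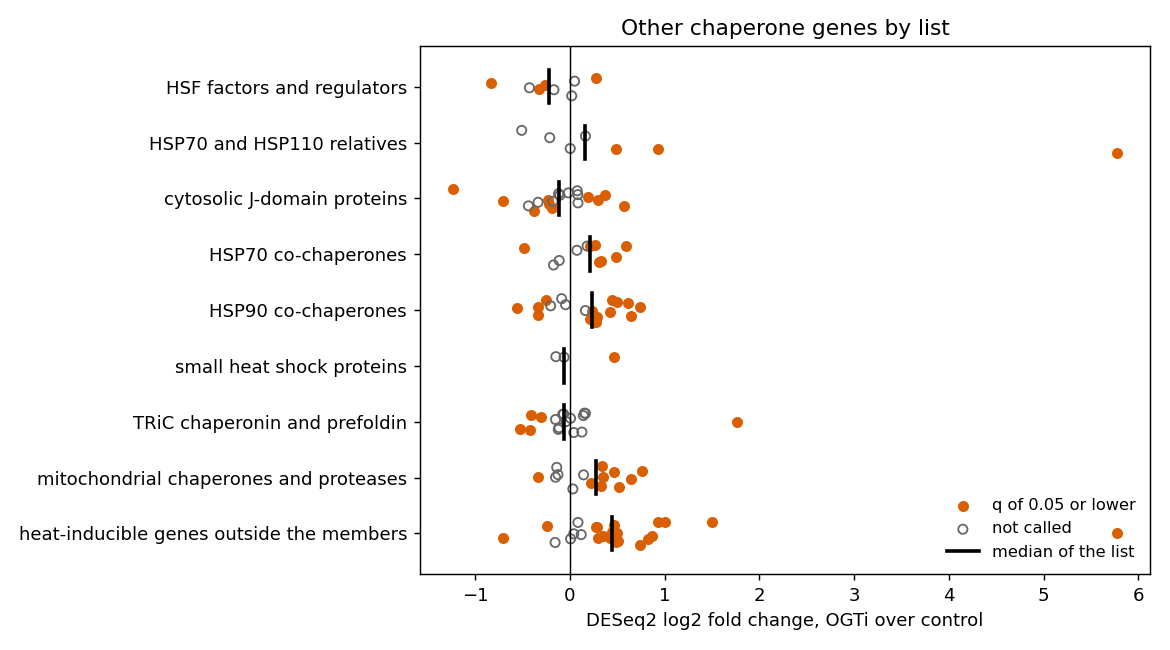
DESeq2 log2 fold change of each tested gene of the 9 lists (filled points for a q of 0.05 or lower), with the list median as a black bar. The heat-inducible list has its median at 0.44 and the TRiC and prefoldin list at -0.07, and the points at 5.78 are HSPA6, which stands in 2 lists and passed the filter on low counts only through its OGTi libraries.

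The genes most like DNAJB1 and HSPH1 in their 4 pair differences were sought among the 10994 genes whose mean reached 100 normalized counts. For DNAJB1 they were C2orf42, CTR9 and AGPAT4, at a root mean square distance of 0.03, 0.06 and 0.07 on the log2 scale over the 4 pairs. For HSPH1 they were RALGAPA2, GSTO1 and MACO1, at 0.06, 0.06 and 0.10. None of these 6 was a member or stood in the chaperone lists. Members and list genes are few among the 10994, so no conclusion is drawn from their absence.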

How the data were processed

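Libraries of polyadenylated RNA from LX-2 cells were aligned by the authors to hg38 with Bowtie2 2.3.5.1 and counted per gene with RSEM 1.3.1, per the study's methods and the submitters' processing notes. The authors deposited 1 table of expected counts per library, estimated counts that share a multi-aligned read between genes and are not scaled for depth. The deposited DESeq2 1.36.0 comparison table (log2 fold changes, their errors, a test score and p-values) was not used.

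After rounding to integers, the genes that summed to 10 counts or more over the 8 libraries (14895 of 16796) were fitted in R 4.3.3 with the DESeq2 1.42.0 Wald test, with treatment and a replicate block, no shrinkage, independent filtering, and a threshold of q = 0.05. The block follows the study's pairing. Deviations from the group mean correlated between libraries of the same number at 0.372, 0.391, 0.165 and 0.327 (Pearson, replicates 1 to 4) across 10994 genes, which are not independent replicates, and OGTi replicate 3 correlated less with control replicate 3 than with control replicate 4 (0.255), and control replicate 3 more with OGTi replicate 4 (0.343). The script was tested on simulated data. Alternatives used edgeR 4.0.16, other size factors, other filters and each pair left out. Within-library ratios were compared with exact permutation tests on log2 values with a pseudocount of 1. Exact tests used scipy 1.17.1.

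The members and lists were chosen with earlier results of these data known. Named list genes were, per list, the 2 largest rises and 2 largest falls among calls whose mean reached 100 normalized counts. A gene that this rule names is not reported here. The other named genes were OGT, the relatives used in ratios, and for DNAJB1 and HSPH1 the 3 nearest genes by paired differences. Gene positions came from GENCODE release 44. Of the 9 lists' 118 genes, 110 were in the files.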

Additional observations from a re-analysis of the deposited data

Results flagged for a closer look

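BAG3 in control replicate 2 had 6750 normalized counts, while the other 3 control libraries had 5960 to 6052. The gap to its neighbour was 0.883 of the range of the group, above the 95% critical value of Dixon's test for 4 samples. Of the 32 groups of 4 libraries tested in this way, 1 passed that limit, and chance alone gives about 1 in 20 such groups, or 1.6 of 32.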

How the results depend on the processing

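Over the alternatives, 5127 to 7074 genes, 7 to 9 of the 10 members and 44 to 65 of the wider chaperone genes were called, all within 1.5 times the reported counts. Leaving out each pair in turn gave 5127 to 5690 genes and 7 to 9 members. Of 118 values of members under an alternative, 105 kept their direction and their side of the threshold, 11 lost the call (HSF1 in 5 and HSP90AB1 in 6), 2 gained it (HSPA8) and 0 reversed. Without the replicate block HSPA8 was called and HSP90AB1 lost its call, and the block changed no other member's call in DESeq2. Under the replicate block, the exact sign-flip test of the 5 ratios gave p = 0.125, the smallest it can give, at unchanged differences of 0.64 (HSP90AA1 over HSP90AB1), 0.93 (HSPA1A plus HSPA1B over HSPA8), 0.39 (HSPH1 over HSPA4), -0.27 (BAG3 over BAG1) and 0.43 (DNAJB1 over DNAJA1). With a pair left out, the permutation test of 3 against 3 libraries cannot go below 0.1. The order of members by level changed in 6 ranks with the canonical transcript length, an alternative chosen after seeing the data. Depth did not limit the members, with at least 2614 normalized counts in every library, but it limits HSPA6, with 1 to 3 control counts per library. The p-values cover the spread between 4 replicates per group of 1 cell line.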
